A study of Mus musculus with 2 samples.

Results

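T and NK cell genes were measured in the RNA of M-MDSCs, monocytic myeloid-derived suppressor cells, isolated from 4T1 tumours. The 35 genes were listed by name for their known use in T and NK cells, with no threshold on signal, and comprised components of the T cell receptor (TCR) and its signalling, coreceptors, transcription factors, cytokine receptors, cytotoxic and NK cell genes, and regulatory genes. All 35 of 35 were represented on the array, by 46 of its 39413 probes, and they form 35 of the 20653 genes that could be named.

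Both groups were female BALB/c mice (spelled BABL/c in the labels) that had been injected subcutaneously with 1000000 cells of 4T1, a mammary carcinoma line. The NSD group received chow with 0.4% NaCl and tap water, and the HSD group received chow with 4% NaCl and 1% NaCl in the drinking water, for 16 days. The isolated cells of each group, mixed in equal numbers before RNA extraction, were hybridised to 1 array per diet with a single dye. The labels name no deletion, transgene or drug for either group. The mice of a group therefore gave 1 value per probe, with no measure of how mice differed, and the diets could not be compared by a test. Differences below compare these 2 pools, not the diets in general.

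T cells recognise antigen through the TCR, whose CD3 chains carry the signal into the cell and are required together for the complex to reach the cell surface. NK cells lack this receptor and share with cytotoxic T cells the granzymes, perforin and several transcription factors. M-MDSCs are myeloid cells known for restraining T cell responses, and they do not carry a TCR.

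The cells had been isolated with a magnetic bead kit for mouse MDSCs, and the label of the cells was set against markers of the cell types that a tumour can hold. Of 10 measured monocyte and macrophage markers, 10 were well above background on both arrays, a call the scanner software makes for each spot. Among the defining ones, Itgam (CD11b) read 31564 (NSD) and 31043 (HSD) in intensity units, and Ly6c1 gave 51811 and 48478. Csf1r gave 11343 and 8112, Lyz2 gave 5021 and 5299, and Ccr2, the receptor that draws monocytes into tissue, gave 259 and 139. Ly6c2 had no named probe. Of the neutrophil markers, 9 of 9 were well above background on both arrays too, among them S100a8 (57914 and 56478), Camp (61817 and 59919), Ltf (51766 and 51993) and Csf3r (53939 and 54723), and so were 10 of 10 B cell markers. Myeloid markers were thus present as the label says, and which cells the neutrophil and B cell transcripts came from was not tested.

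Of the 35 T and NK cell genes, 32 (91.4%) were well above background on both arrays, where 73.6% of all named genes were. Klrb1c, which encodes an NK cell receptor of the NKR-P1 family, was well above background on the HSD array only, and Cd247, the TCR zeta chain, and Ncr1, the activating NK receptor NKp46, were on neither. T and NK cell transcripts were therefore detected in both pools, and which cells they came from was not tested. In a pool of cells, fewer cells of a type and less RNA per cell cannot be told apart, and no share of T or NK cells was derived from these signals.

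**Figure D1:**
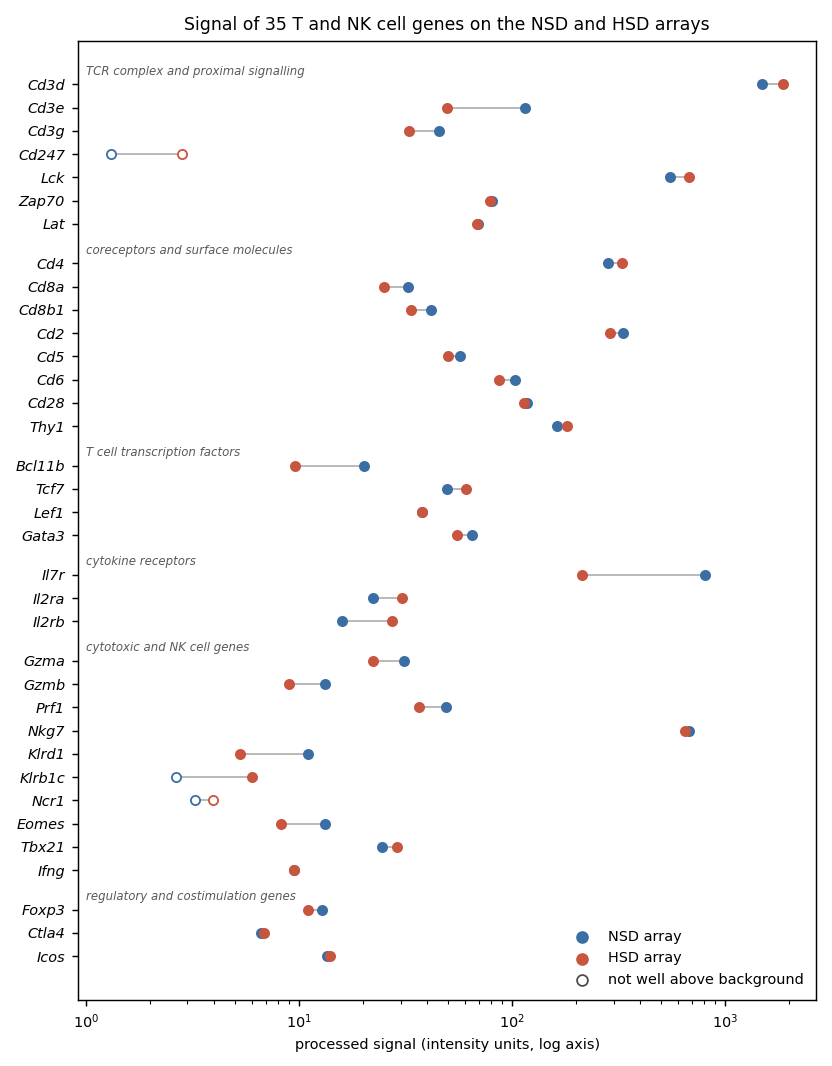
Processed signal of each of the 35 genes (intensity units, log axis) on the NSD array (blue) and the HSD array (red), grouped by role; open circles mark a signal not well above background. A grey line joins the arrays, and the longest lines among filled points are those of Il7r (809 and 215) and Cd3e (115 and 49.8). Signals of different genes come from different probes and are not comparable with each other.

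For the comparison, log2 signals were set relative to the 75th percentile of each array, 252 in the NSD and 233 in the HSD pool, and each difference is given as HSD minus NSD. The error after ± is the SD expected of that difference from replicate spots of other probes at like signal, and it covers measurement within these arrays only. A threshold of 1.5-fold was used. Of the 32 genes well above background on both arrays, 1 was at least 1.5-fold higher in the HSD pool (3.12%, where 8.84% of all genes so measured were higher) and 4 were at least 1.5-fold lower (12.5%, where 9.42% were lower). The other 27 lay within 1.5-fold. With 32 genes, each share was within 2 genes of that of all genes.

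The 32 genes did not move as a block. On the log2 scale, 16 differences were above 0 and 16 below, the median was -0.0067 where that of all genes was 0.04, and the range ran from -1.80 for Il7r to 0.89 for Il2rb. The median size of a difference without its sign was 0.28, beside 0.27 for all genes. The summed scaled signal of all 35 genes was 21.3 in the NSD pool and 22.1 in the HSD pool, in units of each array's 75th percentile. The log2 ratio of these sums was 0.05, beside 0.09 for all genes. Such sums weigh bright probes most, and groups cancelled in them. TCR complex and signalling genes went from 9.37 to 11.95 and cytokine receptors from 3.36 to 1.17. Log2 ratios of the other groups ran from 0.02 to 0.08. The 5 genes past 1.5-fold were Il7r, Cd3e, Bcl11b, Klrd1 and Il2rb. With another background correction (normexp, which adds an offset of 50 to every signal), Bcl11b was at -0.11, Klrd1 at -0.12 and Il2rb at 0.24, inside the threshold.

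**Figure D2:**
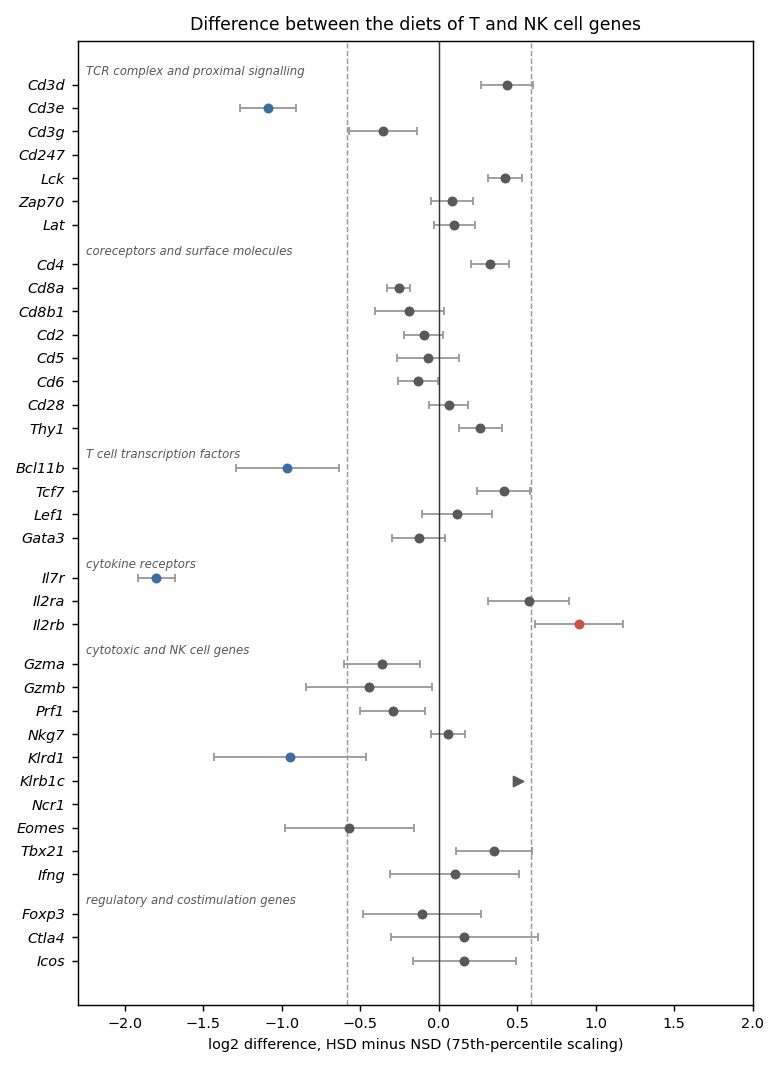
Difference between the pools for each gene (HSD minus NSD, log2, after 75th-percentile scaling). Bars are the SD expected from replicate spots at like signal, dashed lines mark 1.5-fold, blue marks genes past it in the lower and red in the higher direction, the triangle is the lower bound of Klrb1c, and Cd247 and Ncr1 have no value. Il7r lies farthest to the left (-1.80) and Il2rb farthest to the right (0.89).

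Cytokine receptors held the extremes in both directions. Il7r encodes the IL-7 receptor alpha chain, through which naive and memory T cells receive survival signals. Its signal was 809 in the NSD and 215 in the HSD pool, with errors given by the scanner software of 80.9 and 21.5, and the difference of -1.80 ± 0.12 made it 3.49-fold lower in the HSD pool. Il2rb, the beta chain shared by the IL-2 and IL-15 receptors and abundant in NK cells, had signals of 15.9 and 27.3 and was 1.86-fold higher (0.89 ± 0.28). Il2ra, the alpha chain (CD25) of activated and regulatory T cells, gave 22.3 and 30.6 and stopped just short of the threshold at 1.49-fold higher (0.57 ± 0.26). Thus both IL-2 receptor chains lay on the higher side, opposite to Il7r, and Il7r minus Il2rb, each as its own HSD minus NSD difference, came to -2.69 ± 0.30. Il2rg, the common gamma chain that all of these receptors use, gave 360 and 393 (0.24).

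The chains of the TCR complex differed from each other. Cd3d gave a signal of 1501 in the NSD and 1871 in the HSD pool, a difference of 0.43 ± 0.16. Cd3e gave 115 and 49.8, with software errors of 11.5 and 5.15, and was 2.13-fold lower in the HSD pool (-1.09 ± 0.18). Cd3g gave 45.7 and 33.05 and a difference of -0.35 ± 0.22. The HSD pool thus held the higher signal for the delta chain and the lower one for the epsilon and gamma chains, although with the normexp correction Cd3g was at -0.0042. Cd3e minus Cd3d, each as its own HSD minus NSD difference, came to -1.52 ± 0.24, Cd3g minus Cd3d to -0.79 ± 0.27 and Cd3e minus Cd3g to -0.73 ± 0.28, so each gap exceeded its measurement error. Each of these genes had 1 probe with 1 spot per array, so no other probe could check these gaps. Cd247 gave 1.32 and 2.83, not well above background on either array.

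The 3 Cd3 genes are neighbours on chromosome 9, and Cd3d and Cd3g start close together on opposite strands. Their promoters, with that of Il7r, are shown because these genes had the largest difference of the 35 and the unequal differences among subunits of one complex. Each sequence covers the 250 bases before the start of the gene in RefSeq, on the gene's own strand and 5′ to 3′, on build GRCm38.p6. Capitals mark ACTTCC, whose complement GGAAGT is a core motif of ETS-family factors, searched on both strands. The regions are chr15:9529877-9530126 (minus strand) for Il7r, chr9:45009612-45009861 (minus strand) for Cd3e, chr9:44981536-44981785 (plus strand) for Cd3d and chr9:44980432-44980681 (minus strand) for Cd3g.
Il7r: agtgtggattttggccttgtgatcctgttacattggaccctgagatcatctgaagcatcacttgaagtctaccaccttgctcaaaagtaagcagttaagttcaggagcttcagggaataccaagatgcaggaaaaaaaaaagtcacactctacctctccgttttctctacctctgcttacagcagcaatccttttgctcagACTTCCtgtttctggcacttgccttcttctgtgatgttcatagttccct
Cd3e: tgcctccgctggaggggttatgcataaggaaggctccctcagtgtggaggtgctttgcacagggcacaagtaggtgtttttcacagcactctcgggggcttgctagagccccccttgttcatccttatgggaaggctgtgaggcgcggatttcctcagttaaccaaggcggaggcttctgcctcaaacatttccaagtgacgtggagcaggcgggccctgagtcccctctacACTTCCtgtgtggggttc
Cd3d: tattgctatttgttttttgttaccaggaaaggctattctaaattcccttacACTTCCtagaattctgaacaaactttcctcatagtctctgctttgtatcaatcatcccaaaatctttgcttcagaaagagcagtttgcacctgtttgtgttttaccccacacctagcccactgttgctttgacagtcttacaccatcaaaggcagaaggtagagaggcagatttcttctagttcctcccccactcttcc
Cd3g: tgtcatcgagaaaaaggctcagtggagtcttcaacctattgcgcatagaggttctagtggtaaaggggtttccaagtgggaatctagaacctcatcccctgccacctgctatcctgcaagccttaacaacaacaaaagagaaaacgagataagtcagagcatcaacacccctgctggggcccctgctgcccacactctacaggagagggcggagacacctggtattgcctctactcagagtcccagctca

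The motif lay 49 bases before the start of Il7r, 18 before that of Cd3e and 199 before that of Cd3d, and the letters were not in the window of Cd3g. Of 35 promoters listed for 26 of the genes, 15 (42.9%) held it, beside 6485 of 32851 mouse promoters of the same length (19.7%). Some genes had several promoters listed, and these shares were not compared by a test. The motif stood before genes with lower and with higher signals alike, as Cd3e and Cd3d show. A match describes the letters of a window and is no evidence of a bound factor.

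Signalling proteins directly below the TCR showed small differences. Lck, the kinase that phosphorylates the CD3 chains, gave 549.5 in the NSD and 680 in the HSD pool, a difference of 0.42 ± 0.11 that was larger than its error and within 1.5-fold. Zap70, the kinase recruited to the phosphorylated chains, gave 80.8 and 79.1 (0.08 ± 0.13). Lat, the adaptor that Zap70 phosphorylates, gave 69.3 and 68.5 (0.10 ± 0.13). Of the 6 measurable genes of the complex and its signalling, 4 had differences above 0 and 2 below, with a median of 0.09, and Cd3e was the 1 past the threshold.

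None of the 8 coreceptor and surface genes passed 1.5-fold in either direction, and their median was -0.08. Cd4, the coreceptor of helper T cells that some myeloid cells also carry, gave 283.9 and 329 (0.33 ± 0.12). Cd8a, the alpha chain of the coreceptor of cytotoxic T cells, was read by 10 spots per array with an SD between spots of 0.05 on the NSD and 0.13 on the HSD array (log2 scale). Its signals of 32.5 and 25.1 gave a difference of -0.26 ± 0.07, the smallest error of the set. Cd8b1, the beta chain that pairs with it, gave 41.6 and 33.7 (-0.19 ± 0.22), and the differences of the pair were within error of each other (-0.07 ± 0.23). By the brightest probe of each gene, Cd8a and Cd4 lay on opposite sides of 0, with a gap of -0.58 ± 0.14. The other Cd8a probe was dim in both pools (2.09 and 1.74) and could not check this gap. The dimmer Cd4 probe, with 10 spots per array, gave a difference of -0.03, below 0 like that of Cd8a. The opposite signs and the size of the gap thus depended on which Cd4 probe was used. With the normexp correction Cd8a was at -0.02 and Cd8b1 at 0.04. The offset of 50 exceeds the signals of both genes and draws their differences towards 0. This alternative therefore could not show whether they depend on the background correction. Under the other processing alternatives Cd8a ran from -0.30 to -0.25 and Cd8b1 from -0.23 to -0.18.

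The remaining surface genes ran from -0.13 to 0.26. Thy1 (CD90), carried by all mouse T cells, gave 163 and 181 (0.26 ± 0.14). Cd2, the adhesion receptor of T and NK cells, gave 333 and 288 (-0.10 ± 0.12), and Cd28, the main costimulatory receptor, gave 117.5 and 113 (0.06 ± 0.12). Cd5, a negative regulator of TCR signalling, gave 56.9 and 50.05 (-0.07 ± 0.20), and its relative Cd6 gave 103 and 86.8 (-0.13 ± 0.13). Of these 5 genes, Thy1 and, by a narrow margin, Cd6 differed by more than 1 SD of their measurement error. The ligands of CD28 and CTLA-4 on antigen-presenting cells, Cd80 and Cd86, gave 6188 and 6591 (0.21) and 274 and 216 (-0.23), and the sign for Cd80 turned when the median over its probes was taken (-0.23).

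Among the transcription factors, Bcl11b stood apart. It is required for commitment to the T cell lineage and is kept by mature T cells. Its signal of 20.2 in the NSD and 9.56 in the HSD pool, with software errors of 2.23 and 1.31, made it 1.95-fold lower in the HSD pool (-0.97 ± 0.33). Tcf7 (TCF-1), a factor of naive and memory-like T cells, gave 49.6 and 61.0 (0.41 ± 0.17). Its partner Lef1 gave 37.86 and 37.9 (0.12 ± 0.23), and Gata3, the factor of helper type 2 cells and of T cell development, gave 65.2 and 55.2 (-0.13 ± 0.17). The difference of Bcl11b was thus not shared by the other 3 factors, whose differences ran from -0.13 to 0.41.

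Of the cytotoxic and NK cell genes, 5 of 8 measured differences lay below 0, where 6933 of 15209 did over all genes, and their median was -0.33. Klrd1 (CD94), which forms inhibitory and activating NK receptors with NKG2 chains, gave 10.998 and 5.26 and was 1.93-fold lower (-0.95 ± 0.48). Its error was the largest among the 5 genes past the threshold. Eomes, a factor of NK cells and memory CD8 T cells, gave 13.25 and 8.24, 1.48-fold lower (-0.57 ± 0.41), just inside the threshold, and -0.06 with the normexp correction. The partner chain of Klrd1, Klrc1 (NKG2A), gave 2.25 and 2.02 and was at background in both pools.

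Among the genes of cytotoxic granules in this group, 3 of 4 had differences below 0, where 6933 of 15209 did over all genes. Gzma, which encodes granzyme A, gave 31.1 and 22.3 (-0.36 ± 0.24), Gzmb, granzyme B, gave 13.3 and 9.02 (-0.44 ± 0.40), and Prf1, perforin, gave 48.9 and 36.8 (-0.29 ± 0.21). Each of these 3 differences was larger than 1 SD of its error and smaller than 1.5-fold. None was kept at that size with the normexp correction, under which Gzma was at -0.09, Prf1 at -0.015 and Gzmb, with its sign turned, at 0.01. Nkg7, a protein of cytotoxic granules, gave 677 and 651 and differed by less than its error (0.06 ± 0.11). Its dimmer probe, also well above background on both arrays, gave 18.8 and 23.9, a larger difference of 0.47.

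Tbx21 (T-bet), the factor that drives the cytotoxic and helper type 1 programme, lay on the other side with 24.6 and 29.0 (0.35 ± 0.24). Ifng, the cytokine that T-bet induces, gave 9.52 and 9.44 (0.10 ± 0.41). Klrb1c gave 2.65, not well above background, and 6.03, so that it was at least 1.42-fold higher in the HSD pool by the lowest signal counted as well above background on the NSD array, 4.61. Ncr1 gave 3.26 and 3.96, with no fold given. The group thus contained genes on both sides of 0, and of its 3 NK cell receptors Klrd1, Klrb1c and Ncr1, only Klrd1 was well above background on both arrays.

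The regulatory and costimulation genes differed by less than their errors. Foxp3, the lineage factor of regulatory T cells, gave 12.8 and 11.02 (-0.11 ± 0.38). Ctla4, the inhibitory receptor of activated and regulatory T cells, gave 6.65 and 6.87 (0.16 ± 0.47). Icos, an inducible costimulator, gave 13.5 and 13.98 (0.16 ± 0.33), and its ligand Icosl, made by antigen-presenting cells, gave 1048 and 1437 (0.57). The 2 probes of Icos gave differences of 0.16 and 0.03.

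Second probes gave a check of some of these values. Of the 35 genes, 11 had several probes, and 7 had several that were well above background on both arrays. In 3 of the 7 (Cd6, Icos and Nkg7) the probes lay on the same side of 0, and in 4 (Cd2, Cd4, Tcf7 and Zap70) they lay on both sides. The widest gap was that of Tcf7, whose dimmer probe gave 8.53 and 6.79 (-0.22 against 0.41). For Cd2, a dimmer probe with 10 spots per array gave 27.7 and 34.5, a difference of 0.43 where the brighter one gave -0.10. For Cd4, the dimmer probe, also with 10 spots, gave 12.3 and 11.1, a difference of -0.03 where the brighter one gave 0.33. The direction of differences of this size thus depended on the probe.

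Bcl11b and Eomes had second probes that lay on the same side of 0 as the first. The second probe of Bcl11b, for another of its transcripts, gave 9.18 on the NSD array and 3.13, not well above background, on the HSD array. That of Eomes gave 5.93 and 3.92, the latter likewise not well above background. Il7r, Cd3e, Klrd1 and Il2rb had 1 probe each. Of the 5 genes past 1.5-fold, Bcl11b was therefore the 1 with a second probe.

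**Figure D3:**
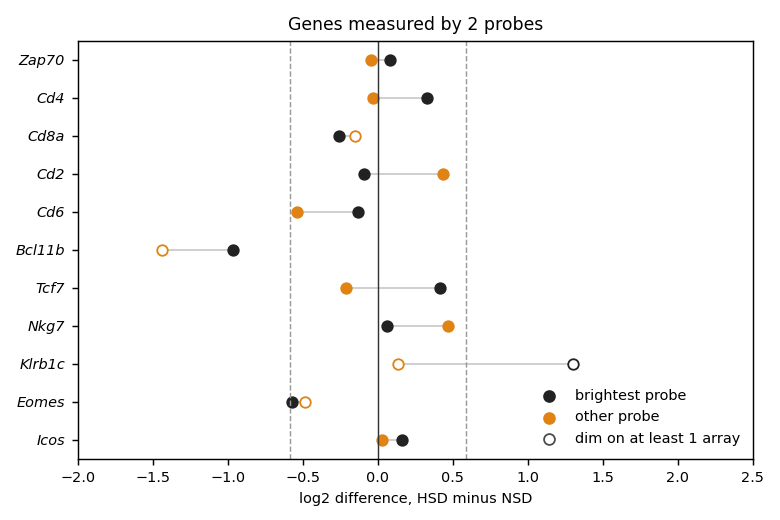
Differences (HSD minus NSD, log2) of the 11 genes with 2 probes; black circles are the brightest probe, orange circles the other, open circles mark a probe dim in 1 or both pools, and dashed lines mark 1.5-fold. The probes of Cd2, Cd4, Tcf7 and Zap70 lie on both sides of 0, and those of Bcl11b both lie to the left (-0.97 and -1.44). The -1.44 rests on an HSD signal that was not well above background, so its size was not measured.

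A further list of 59 genes of T and NK cells was mixed as well. Of these, 47 (79.7%, where 73.6% of all named genes were) were well above background on both arrays. Xcl1, a chemokine of activated NK and CD8 T cells, was so on the HSD array only, and 11 on neither. Of the 47, 5 passed 1.5-fold in the higher direction (10.6%, where 8.84% of all genes so measured did). In the lower direction 7 passed it (14.9%, where 9.42% of all genes did), and the median was -0.04. Among the 11 at background were Cd40lg, Klrk1, Fasl, Lag3 and Tigit, all known from T or NK cells.

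Genes of that list past the threshold in the lower direction included effector genes. Ccl5, a chemokine of memory T and NK cells that myeloid cells can also make, gave 1168 in the NSD and 385 in the HSD pool (-1.49). Havcr2 (TIM-3), found on exhausted T cells and on myeloid cells, gave 137 and 45.9 (-1.47). Ctsw, a protease of cytotoxic cells, gave 60.0 and 31.6 (-0.81), Cxcr3, a receptor for interferon-induced chemokines, gave 86.5 and 47.9 (-0.74), and Ms4a4b, a membrane protein of T cells, gave 399 and 225 (-0.71). With the normexp correction, Ctsw was at -0.27 and Cxcr3 at -0.27, while Ccl5 was at -1.27, Havcr2 at -0.78 and Ms4a4b at -0.59.

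In the higher direction, Klre1, a lectin-like receptor of NK cells, gave 14.3 and 96.3, 7.29-fold higher (2.87, and 0.77 with the normexp correction). Il18rap and Il18r1, the chains of the IL-18 receptor, gave 412 and 680 (0.84) and 124 and 181 (0.66). Zbtb7b (ThPOK), the factor of CD4 T cells, gave 8752 and 12871 (0.67), and Ets1, a factor of lymphocytes, gave 1328 and 1903 (0.63). These 2 fell inside 1.5-fold under quantile normalization (0.57 and 0.56) and cyclic loess (0.55 and 0.55), Zbtb7b in the deposited values (0.58), Ets1 with the median over probes (0.43) and Il18r1 with the normexp correction (0.52). Klre1 and Klrd1, both NK cell lectin-like receptors, thus lay far apart in opposite directions.

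**Figure D4:**
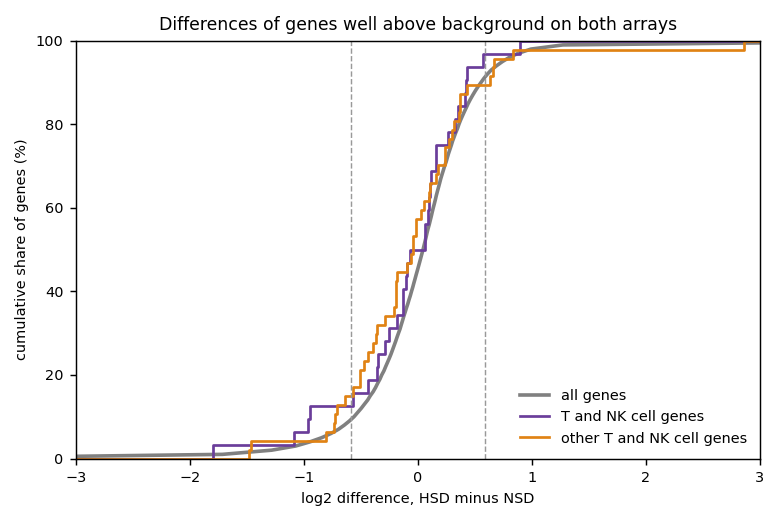
Cumulative share (%) of genes by their difference (HSD minus NSD, log2), for genes well above background on both arrays: all 15209 genes (grey), the 32 T and NK cell genes (purple) and 47 other T and NK cell genes (orange); dashed lines mark 1.5-fold. The medians are -0.0067 for the 32 genes and 0.04 for all genes.

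Markers of other cells moved as follows beside these genes, and their part in the differences was not tested. The summed scaled signal of 10 monocyte and macrophage markers was 437 in the NSD pool and 436 in the HSD pool, with 2 higher and 3 lower by 1.5-fold or more, Ccr2 among the lower. That of 9 neutrophil markers was 1220 and 1286, with 0 higher and 1 lower. Among the lymphoid lists, B cell markers had a median of 0.39, with 8 of 10 above 0 and 0 past 1.5-fold, and a summed signal of 36.4 and 45.3. The median of the T and NK cell genes lay lower than that of the B cell genes, -0.0067 beside 0.39.

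Among the other lists, 7 of 9 dendritic cell markers were well above background on both arrays (summed signal 63.3 and 61.3, most of it from Siglech), with Bst2 4.65-fold, Batf3 2.17-fold and Cd209a at least 2.997-fold lower and Clec9a 1.74-fold higher. It was 7 of 8 mast cell and basophil markers (4.33 and 3.14). For carcinoma epithelium it was 8 of 10 (0.94 and 0.95, with Krt19 and Elf3 at background), and Epcam, Krt8 and Krt18 were 1.63-fold, 1.53-fold and 1.70-fold higher. For fibroblasts it was 6 of 10 (0.93 and 0.75), and for endothelial cells 6 of 10 (2.24 and 2.46). For erythroid cells and platelets it was 8 of 9 (43.9 and 49.0, most of it from Hba-a1), with 6 of the 8 below 0, a median of -0.22, Ppbp 4.68-fold and Itga2b 1.85-fold lower. Also at background in both pools were Xcr1 among the dendritic cell markers, Lum, Pdgfra and Postn among those of fibroblasts, and Tie1 and Emcn among those of endothelial cells. Fibroblast markers had the lowest median of these lists, -0.68, with 3 genes lower and 1 higher.

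**Figure D5:**
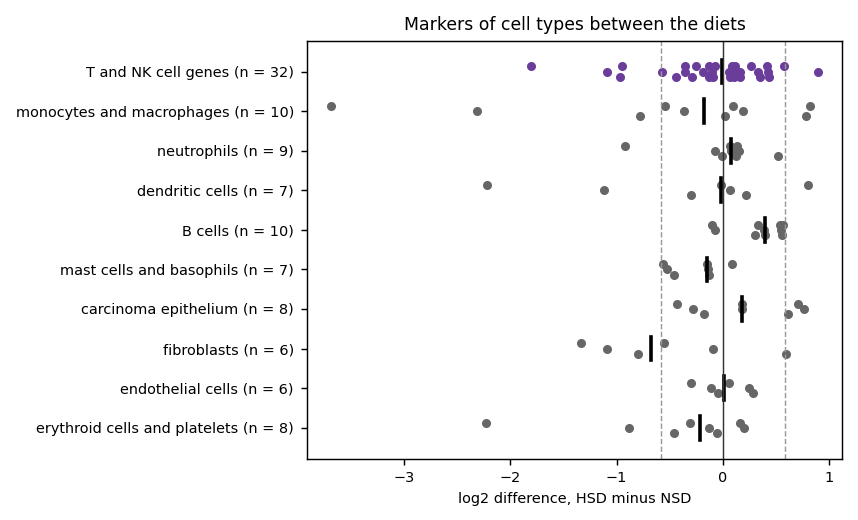
Differences (HSD minus NSD, log2) of the markers of each cell type that were well above background on both arrays; each point is a gene, black ticks are medians, n is the number of genes, and dashed lines mark 1.5-fold. The median of the 32 T and NK cell genes lies at -0.0067, that of 10 B cell genes at 0.39.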

How the data were processed

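Agilent Mouse GE v2 arrays (4 × 44 k), 1 per diet and both on 1 slide, were read with Feature Extraction 11.0.1.1. The authors deposited spot intensities corrected for background and spatial trends, not normalised between arrays, and a table of log2 values that appears quantile normalised (99.7% of rank-ordered values equal within 0.001), used as an alternative. Each array held 43020 non-control spots, of which 162 (NSD) and 179 (HSD) were flagged as outliers and left out. No spot was saturated. Log2 signals were averaged over the spots of a probe and scaled on the 75th percentile, and a probe counted as well above background when at least 50% of its spots did. Where a gene was dim on 1 array, a lower bound was used.

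Transcript identifiers were matched to RefSeq (GRCm38.p6), naming 27223 of 39413 probes (69.1%), and the brightest probe stood for a gene. The array was annotated on another assembly, so no probe coordinates are given. Measurement error came from probes with at least 5 spots within 0.5 log2 units of the signal. Without replicate arrays no p-value was computed, and the number of arrays limits precision. Genes and lists were chosen with earlier results of these data known. By rule, all 35 genes were named, with defining monocyte markers, binding partners and up to 6 further T and NK cell genes per direction, of which 1 is not reported here. Alternatives were normexp (offset 50, run on median spot signals), scaling on the median or on detected probes, quantile, cyclic loess, deposited values, flagged spots kept, the median over probes, other filters and a 2-fold threshold. Counting was tested on simulated data. Python 3.11.15, numpy 2.4.6, pandas 2.3.3, matplotlib 3.10.9, R 4.3.3 and limma 3.58.1 were used.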

Additional observations from a re-analysis of the deposited data

How the results depend on the processing

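The counts of 1 gene higher and 4 lower changed under 7 alternatives. With normexp background correction they were 0 higher and 2 lower, and with a 2-fold threshold likewise 0 and 2. Without the filter for dim signals they were 3 and 4, since Cd247 and Klrb1c then counted. Among all genes, the scaling used above gave 1608 higher and 1682 lower of 16312, and normexp 619 and 655 of 16083. All-gene counts for the 2-fold threshold and without the filter are not given. Scaling on detected probes, quantile normalization, cyclic loess and the deposited values gave 1 higher and 5 lower, the fifth being Eomes. Its values were, in that order, -0.61, -0.61, -0.68 and -0.59. All-gene counts in the same order were 1872, 1836, 1991 and 1792 lower, and 1395, 1380, 1244 and 1394 higher. Il7r and Cd3e passed 1.5-fold under 8 of 8 processing alternatives, with values nearest to 0 of -1.62 and -0.75. Bcl11b, Klrd1 and Il2rb passed it under 7 of 8, and under normexp they were at -0.11, -0.12 and 0.24. The normexp offset of 50 exceeds the signals of these 3 genes and so draws their differences towards 0. The same holds for Cd3g, Cd8a, Cd8b1, Gzma, Gzmb, Prf1 and Eomes. Of 264 values of single genes, 245 moved by no more than their measurement error and 19 by more, 14 of them under normexp and 5 with the median over probes. The median over 33 genes, Klrb1c at its bound, was 0.06 and ranged down to -0.02 under cyclic loess. Over all genes, 48.9% of the calls were in the higher direction, and 38.5% under cyclic loess. No paired analysis was possible because each diet has 1 array and the labels give no replicate numbers. Signal limits the faint genes: for Ctla4, Eomes, Ifng and Klrd1 the expected SD of a difference was 0.41 to 0.48.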
